A study of Homo sapiens with 12 samples.

Results

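The ESRP, RBM47/A1CF, RBMS and RAVER genes encode RNA-binding proteins (RBPs) that were examined here as candidate regulators of the splicing differences between classical and basal-like pancreatic ductal adenocarcinoma (PDAC). The 9 genes were selected by their symbols (ESRP1, ESRP2, RBM47, A1CF, RBMS1, RBMS2, RBMS3, RAVER1 and RAVER2), and each matched exactly 1 of the 48114 genes in both deposited tables. PolyA RNA was sequenced in 12 libraries from 2 PDAC cell lines, PANC-1, used in the study as basal-like cells, and HPAF-II, used as classical cells. PANC-1 cells received a control siRNA (siCtrl) or siRNAs against the splicing factors QKI (siQKI) or RBFOX2 (siRBFOX2), the latter pair at 40 nM, for 48 h. HPAF-II cells were labelled as treated with siCtrl for the same 48 h, so no group was left without siRNA. Each of the 4 groups had 3 libraries. Each subtype was represented by a single cell line, and the labels do not say whether the libraries of a group came from separate cultures, so p-values measure only the spread between these libraries.

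Alternative splicing is steered by RBPs that bind short motifs in pre-mRNA and promote or block the use of nearby exons. ESRP1 and ESRP2 are epithelial-restricted splicing regulators, known for the epithelial isoforms of FGFR2 and CD44, and they are lost when epithelial cells become mesenchymal. RBM47 and A1CF are related proteins that guide the cytidine deaminase APOBEC1 to its RNA targets, and RBM47 also regulates splicing. RBMS1, RBMS2 and RBMS3 bind A/U-rich single-stranded nucleic acid and act on RNA stability and splicing. RAVER1 and RAVER2 are partners of the splicing repressor PTBP1, and RAVER1 also binds vinculin.

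Values are normalized counts, that is gene counts divided by a size factor of each library, with separate size factors for the PANC-1 and the HPAF-II table. QKI fell to 0.197 of its siCtrl level in siQKI cells and RBFOX2 to 0.135 in siRBFOX2 cells (limma on log2(normalized count + 1), adjusted p = 9.15e-13 and 4.7e-11). QKI silencing also lowered RBFOX2, to 0.819 of its siCtrl level (adjusted p = 0.0207 in limma), with all siQKI libraries below all siCtrl libraries. In limma this call was lost without siCtrl replicate 2 (adjusted p = 0.0545) or 3 (0.054) and without siQKI replicate 1 (0.0508) or 3 (0.0585). It was also lost without the mean-variance trend (0.114). Replicates of the PANC-1 groups correlated with r of 0.962 to 0.970 across genes, against 0.921 to 0.938 in HPAF-II. The HPAF-II libraries stood apart from each other: replicate 3 was at least 2-fold away from the mean of the other HPAF-II libraries at 12.5% of genes, replicates 1 and 2 at 8.24% and 9.48%, and no PANC-1 library at more than 4.11%. For this reason the rescaled values of the members in HPAF-II are given by library below. Library totals lay between 292248837 and 376192091 count steps in PANC-1 and between 226697015 and 309720537 in HPAF-II, and a step is not a single sequenced fragment, so precision was taken from the replicates. In bulk RNA, fewer cells expressing a gene and less RNA of it per cell cannot be told apart.

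Depletion of QKI was accompanied by higher ESRP2, RAVER1 and RAVER2 and by lower RBMS1 and RBMS2 (siQKI against siCtrl). Of the 8 members that could be tested, 3 were higher, beside 14.9% of all 22544 genes tested, and 2 were lower, beside 18.1%. The changes were small, from 0.691 to 1.35 of the siCtrl level. ESRP1, RBM47 and RBMS3 did not pass the threshold of an adjusted p of 0.05, and A1CF was too low to be tested.

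ESRP2 (chr16:68229033-68236584, minus strand, hg38) was, per length, far more abundant than ESRP1 in PANC-1 cells. Its normalized counts were 6862, 6431 and 6373 in siCtrl libraries, 9041, 9286 and 8322 in siQKI libraries and 8044, 7226 and 7863 in siRBFOX2 libraries. All siQKI libraries lay above all siRBFOX2 libraries, and these above all siCtrl libraries. The level rose 1.35-fold after QKI silencing (log2 fold change 0.44, SE 0.06, adjusted p = 4.2e-05 in limma) and 1.18-fold after RBFOX2 silencing (log2 fold change 0.23, SE 0.06, adjusted p = 0.00884), the second call being lost without limma's mean-variance trend (adjusted p = 0.0507). The end of ESRP2 shares 227 bases with NFATC3 on the opposite strand, whose mean was 3491 in siCtrl and 3345 in siQKI cells.

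ESRP1, on chromosome 8, was present at a low level. Its normalized counts were 123, 253 and 181 in siCtrl, 265, 273 and 285 in siQKI, and 218, 301 and 211 in siRBFOX2 libraries. The siCtrl libraries spread widely (CV 35.2%), and the highest of them stood close to the lowest siQKI library. The log2 fold change with siQKI was 0.62 (SE 0.28, adjusted p = 0.101 in limma), and it depended on the control libraries: it was 0.88 with an adjusted p of 0.031 without siCtrl replicate 2 and 0.36 with an adjusted p of 0.365 without siCtrl replicate 1. With siRBFOX2 the log2 fold change was 0.43 (adjusted p = 0.293 in limma), and the libraries overlapped those of siCtrl.

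RBM47 (chr4:40423280-40630623, minus strand) was also low in PANC-1 cells. The siCtrl libraries had normalized counts of 246, 253 and 181, the siQKI libraries 429, 263 and 367, and the siRBFOX2 libraries 235, 309 and 185. The 3 siQKI libraries lay above the 3 siCtrl libraries, the lowest by a narrow margin, and the siRBFOX2 libraries overlapped both groups. The log2 fold change with siQKI was 0.62 (SE 0.26, adjusted p = 0.0818 in limma) and ranged from 0.47 to 0.82 with a library left out, with an adjusted p of 0.0417 at its highest, without siQKI replicate 2. With siRBFOX2 it was 0.08 (adjusted p = 0.858 in limma). A1CF (chr10:50799409-50885676, minus strand), the relative of RBM47 known as the APOBEC1 complementation factor, was listed at 0 in 8 of the 9 PANC-1 libraries and at 5.74 in siCtrl replicate 1. In GENCODE v29 the coding gene ASAH2B lies over the end of A1CF on the opposite strand, and its values were not used here.

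**Figure D1:**
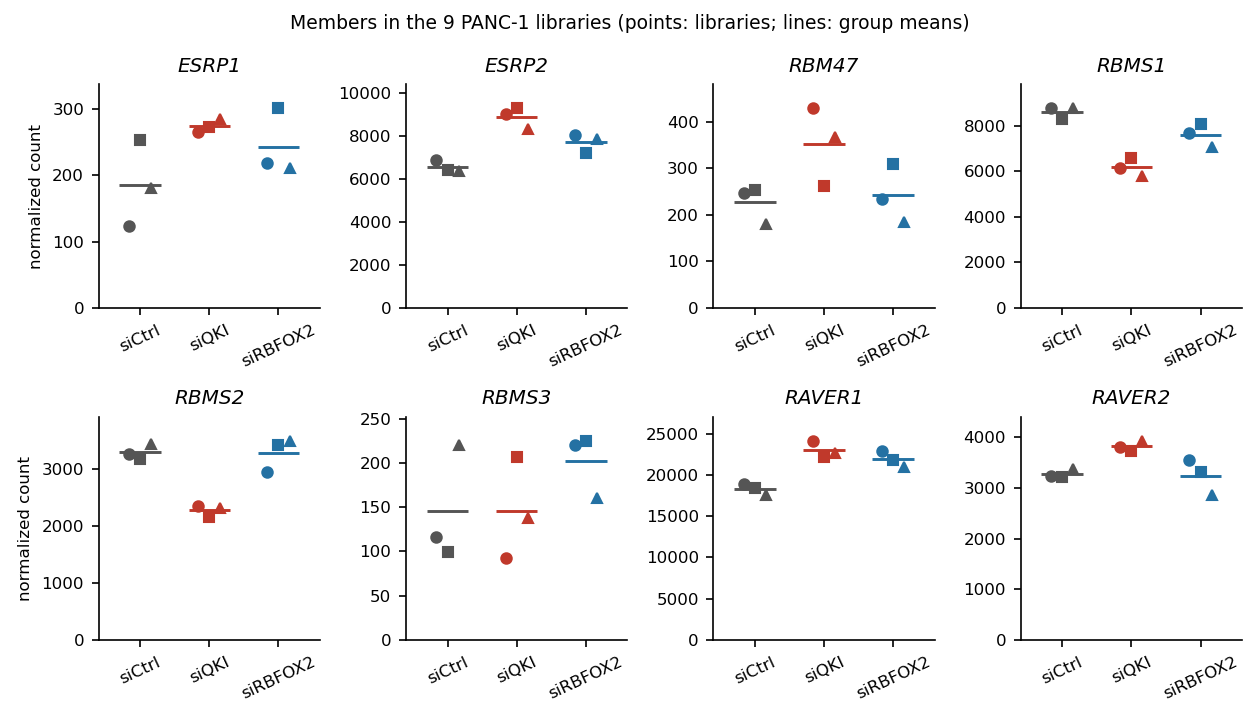
Normalized counts (linear axes starting at 0) of the 8 tested members in PANC-1 libraries by siRNA group; each point is a library (circle, square and triangle for replicates 1, 2 and 3) and each line the mean of 3. ESRP2 and RAVER1 were higher in both knockdowns than in siCtrl, RBMS2 was lower in siQKI libraries (2168 to 2354 against 3174 to 3449 in siCtrl), and ESRP1, RBM47 and RBMS3 reached at most 429 with a wide spread.

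RBMS1 (chr2:160272151-160493807, minus strand) and RBMS2 (chr12:56521820-56596193, plus strand) moved in the opposite direction to ESRP2. RBMS1 had normalized counts of 8756, 8307 and 8755 in siCtrl libraries, 6152, 6579 and 5768 in siQKI libraries and 7682, 8059 and 7072 in siRBFOX2 libraries. The 3 groups did not overlap, with siQKI lowest and siRBFOX2 in between. RBMS1 fell to 0.716 of the siCtrl level with siQKI (log2 fold change -0.48, SE 0.06, adjusted p = 2.52e-05 in limma) and to 0.883 with siRBFOX2 (log2 fold change -0.18, SE 0.06, adjusted p = 0.045). The second call was weak: leaving out any siCtrl library, siRBFOX2 replicate 1 or 3, or siQKI replicate 1 raised its adjusted p to between 0.0528 and 0.176, and it was also lost without the filter on low genes (0.0565) or without limma's mean-variance trend (0.127).

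RBMS2 had normalized counts of 3266, 3174 and 3449 in siCtrl, 2354, 2168 and 2312 in siQKI, and 2951, 3427 and 3502 in siRBFOX2 libraries. The siQKI libraries lay below all others, whereas siRBFOX2 and siCtrl libraries overlapped. The level fell to 0.691 of siCtrl with siQKI (log2 fold change -0.53, SE 0.08, adjusted p = 8.67e-05 in limma) and was at 0.997 of it with siRBFOX2 (SE 0.08 on the log2 scale, adjusted p = 0.976). RBMS2 shares its last 1051 bases with BAZ2A on the opposite strand, and BAZ2A went the other way, from a mean normalized count of 7505 in siCtrl to 12167 in siQKI cells.

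RBMS3 (chr3:29281071-30010395, plus strand), the least abundant of the RBMS genes per length, varied widely. Its normalized counts were 116, 98.9 and 220.3 in siCtrl, 92.4, 207 and 138 in siQKI, and 220, 225 and 160.2 in siRBFOX2 libraries. All groups overlapped, and the log2 fold changes against siCtrl were 0.02 with siQKI (SE 0.37, adjusted p = 0.975 in limma) and 0.55 with siRBFOX2 (SE 0.37, adjusted p = 0.322).

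RAVER1 (chr19:10316212-10333529, minus strand) rose after both knockdowns. The siCtrl libraries had normalized counts of 18845, 18439 and 17599.6, the siQKI libraries 24146, 22186 and 22642, and the siRBFOX2 libraries 22911, 21749 and 20996. Every knockdown library was above every siCtrl library, while the knockdowns overlapped each other. The rise was 1.26-fold with siQKI (log2 fold change 0.33, SE 0.05, adjusted p = 7.28e-05 in limma) and 1.20-fold with siRBFOX2 (log2 fold change 0.26, SE 0.05, adjusted p = 0.0009). GENCODE v29 places AC011511.4, another coding gene, over the end of RAVER1 on the same strand, whose values were not used here.

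RAVER2 (chr1:64745075-64833232, plus strand) had normalized counts of 3232, 3211 and 3368 in siCtrl, 3817, 3735 and 3935 in siQKI, and 3560, 3315 and 2857 in siRBFOX2 libraries. The siQKI libraries were above all others, and the siRBFOX2 libraries spread around the siCtrl level. The difference with siQKI was 1.17-fold (log2 fold change 0.23, SE 0.08, adjusted p = 0.0354 in limma), but leaving out any siCtrl or siQKI library raised the adjusted p to between 0.053 and 0.109, and it was 0.085 without the trend. With siRBFOX2 the log2 fold change was -0.02 (SE 0.08, adjusted p = 0.904 in limma).

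For siRBFOX2 against siCtrl, ESRP2 and RAVER1 were therefore the 2 members called higher of 8 tested, beside 12.0% of all genes, and RBMS1 was the 1 called lower, beside 14.5%. The knockdowns share the siCtrl libraries, so agreement of direction between them is not independent evidence.

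The direct comparison of siQKI with siRBFOX2 cells does not use the siCtrl libraries except for the shared estimate of the spread. ESRP2 and RAVER2 were higher in siQKI cells (2 of 8 tested, beside 9.93% of all genes) and RBMS1 and RBMS2 were lower (2 of 8, beside 11.6%). The log2 fold changes of siQKI over siRBFOX2 were 0.20 for ESRP2 (SE 0.06, adjusted p = 0.0229 in limma), -0.30 for RBMS1 (SE 0.06, adjusted p = 0.0025), -0.53 for RBMS2 (SE 0.08, adjusted p = 0.000178) and 0.24 for RAVER2 (SE 0.08, adjusted p = 0.0354). RAVER1 did not pass the threshold (log2 fold change 0.07, SE 0.05, adjusted p = 0.347 in limma), nor did RBM47 (0.54, SE 0.26, adjusted p = 0.17), ESRP1 (0.19, adjusted p = 0.706) or RBMS3 (-0.52, adjusted p = 0.372). The calls for both RBMS genes held whichever library was left out. Those for ESRP2 and RAVER2 were lost without siQKI replicate 1 (adjusted p = 0.0736 and 0.0769) or siQKI replicate 2 (0.106 and 0.0646). ESRP2 was also lost without siRBFOX2 replicate 2 (0.0922), and RAVER2 without siQKI replicate 3 (0.114) or siRBFOX2 replicate 3 (0.162). Without the trend ESRP2 and RAVER2 were at 0.0876 and 0.0966, and RAVER2 was at 0.0551 in a fit of these groups alone.

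**Figure D2:**
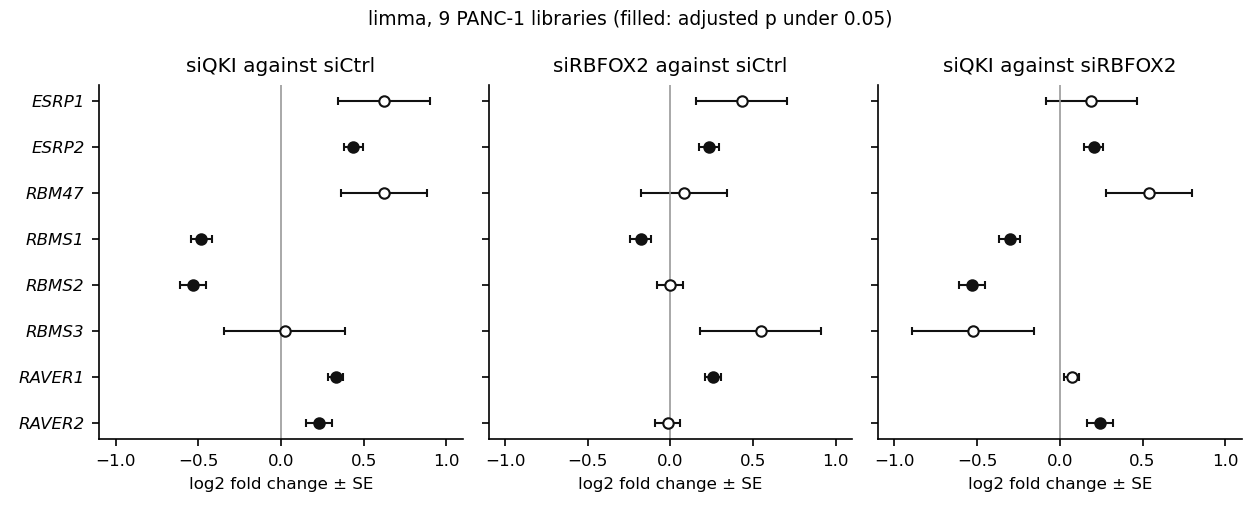
Log2 fold change (x axis) with its SE (bars) of each tested member (y axis) in the 3 comparisons of PANC-1 groups; filled points have an adjusted p under 0.05 in limma. RBMS2 moved by -0.53 against both other groups and stood at 0.997 of siCtrl with siRBFOX2, and the bars of ESRP1, RBM47 and RBMS3 are the longest.

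Short stretches of the members that moved are shown because they hold the motif of a silenced protein. The longest protein-coding transcript of each gene in GENCODE v29 (GRCh38, the same build as the files) was searched on its own strand for ACTAAC, the DNA spelling of a QKI recognition element, and for TGCATG, that of RBFOX proteins. Introns, other transcripts and other forms of the motifs were not searched. The study described the QKI motif near regulated exons as (A/T/G)CTAAC and included the flanking introns, so a gene without a match here may hold one elsewhere. In the 30 bases below, capitals mark the motif. RBMS2, RAVER1 and RAVER2 each held 1 ACTAAC. It lay in the 3′ UTR of RBMS2 (chr12:56589238-56589267), in the coding sequence of RAVER1 (chr19:10320778-10320807) and in the 3′ UTR of RAVER2 (chr1:64831224-64831253).
RBMS2: gccctgctaaggACTAACacttagccatcg
RAVER1: gagggccccccaACTAACcccccagcccct
RAVER2: tccattggagaaACTAACaatgttccaata
ESRP2 and RBMS1, which moved after both knockdowns, held no ACTAAC and 1 TGCATG each, both in the 3′ UTR (chr16:68230011-68230040 and chr2:160274386-160274415).
ESRP2: atggctggacccTGCATGcagggctggggg
RBMS1: gacttatccaagTGCATGaccggatttttg
These motifs are common. Among coding transcripts within 10% of the same length, ACTAAC occurred in 52.8% for RBMS2, 26.1% for RAVER1 and 31% for RAVER2, and TGCATG in 61.6% for ESRP2 and 67% for RBMS1. RBMS2, which did not pass the threshold with siRBFOX2, held TGCATG at 2 places, RAVER2 also at 2 and RAVER1 at none. Members that did not pass or were not tested held the motifs too: ESRP1 had 1 ACTAAC, A1CF had 2 ACTAAC, RBM47 had 1 TGCATG and RBMS3 had 3 TGCATG. A match is a description of these letters and not a binding site.

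Genes whose level followed a member most closely over the 9 PANC-1 libraries were taken from 15249 genes with a symbol and a mean of at least 50, by Pearson's r of log2 values. The libraries share the 3 treatments, so a high r reflects group means as much as anything else, and 45 to 525 genes reached an r of 0.9 with a given member. The closest were GGPS1 (0.985) and VPS9D1 (0.983) for ESRP2, and USP4 (0.986) and SNAPC3 (0.976) for RBMS1. RBMS2 was followed most closely by VAMP3 (0.993) and RND3 (0.977), RAVER1 by CTSH (0.987) and SLC29A4 (0.983), and RAVER2 by PLEKHN1 (0.976) and HSD17B7P2 (0.975). Among the members themselves, ESRP2 and RAVER1 had an r of 0.89 and RBMS1 and RBMS2 of 0.82. ESRP2 ran against RBMS1 (-0.86) and RBMS2 (-0.81), as did RAVER2 against RBMS2 (-0.86) and RAVER1 against RBMS1 (-0.79). Only called members were compared, so these signs largely follow from the calls.

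Partners and relatives of the members changed in both directions. Of 12 tested genes of this list, 2 were higher and 6 lower in siQKI than in siCtrl cells, beside 14.9% and 18.1% of all genes. The median log2 fold change was -0.08, beside 0.025 over all genes. PTBP1, the partner of the RAVER proteins, fell (log2 fold change -1.13, SE 0.04, adjusted p = 1.15e-11 in limma), and its neuronal relative PTBP2 rose (2.54, SE 0.06, adjusted p = 8.69e-13). SYNCRIP, a relative of RBM47 and A1CF, fell as well (-0.34, SE 0.05, adjusted p = 6.79e-05). With siRBFOX2, 2 genes were higher and 6 lower, beside 12.0% and 14.5% of all genes (median -0.12 beside 0.011 over all genes). The higher genes were HNRNPH1 and CELF2. CELF2 was at 0 in the siCtrl libraries and reached the minimum mean only through the siRBFOX2 libraries. Both PTBP1 (-0.18, SE 0.04, adjusted p = 0.00119 in limma) and PTBP2 (-0.70, SE 0.06, adjusted p = 9.04e-07) were lower there, and vinculin (VCL), the cytoskeletal partner of RAVER1, was also lower (-0.16, SE 0.04, adjusted p = 0.00372). In siQKI against siRBFOX2 cells, 3 genes of the list were higher and 3 lower, beside 9.93% and 11.6% of all genes (median -0.04 beside 0.005). APOBEC1, the enzyme that RBM47 and A1CF guide, was too low to be tested in PANC-1 cells.

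Genes known for exons that depend on ESRP proteins were examined at the level of the whole gene, since exon usage is not in these tables. Of 14 tested, 3 were higher in siQKI than in siCtrl cells, among them FGFR2 and SCRIB, and 6 were lower (CD44, ENAH, EXOC7, MAP3K7, SLK and OSBPL3), beside 14.9% and 18.1% of all genes, with a median log2 fold change of -0.10 beside 0.025. The receptor gene FGFR2 rose by 0.29 on the log2 scale (SE 0.07, adjusted p = 0.00568 in limma) and the hyaluronan receptor gene CD44 changed by -0.32 (SE 0.04, adjusted p = 1.06e-05). With siRBFOX2 none of the 14 was called higher and 5 were lower (beside 12.0% and 14.5% of all genes), among them CD44 (-0.69, SE 0.04, adjusted p = 1.07e-08 in limma), with a median of -0.05. Between the knockdowns, 3 were higher and 4 lower in siQKI cells, beside 9.93% and 11.6% of all genes (median 0.05).

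The epithelial and mesenchymal lists, with which the ESRP genes are usually discussed, held calls in both directions. In siQKI against siCtrl cells, where 14.9% of all genes were higher and 18.1% lower, 3 of 18 tested epithelial genes were higher (CDH1, CLDN7 and ELF3), 1 was lower (CLDN4) and 14 did not pass (median log2 fold change 0.15 beside 0.025 over all genes). E-cadherin (CDH1) rose by 1.39 on the log2 scale (SE 0.11, adjusted p = 1.54e-07 in limma). Of 13 mesenchymal genes, 6 were higher (CDH2, TWIST2, SPARC, COL1A1, MMP2 and TGFB1) and 4 were lower (VIM, ZEB1, SNAI1 and SNAI2), with a median of 0.26. The repressors ZEB1 (-0.28, SE 0.06, adjusted p = 0.00249 in limma) and SNAI1 (-0.52, SE 0.08, adjusted p = 7.39e-05) were among the lower genes. A link of either to ESRP2 was not tested. With siRBFOX2, beside 12.0% of all genes higher and 14.5% lower, 2 epithelial genes were higher and 2 lower (median 0.20), and 6 mesenchymal genes were higher and 1, SNAI1, lower (median 0.22). ZEB1 did not pass there (0.02, SE 0.06, adjusted p = 0.888 in limma). In siQKI against siRBFOX2 cells, 9.93% of all genes were higher and 11.6% lower. There, 5 epithelial genes were higher and 2 lower (median 0.11), and 4 mesenchymal genes were higher and 1 lower (median 0.04).

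Promoters of the members were searched for the letters CACCTG and CAGGTG, the E-box on either strand that ZEB and SNAI repressors recognise. RefSeq promoter sequences (GRCh38.p14) matched 6 of the 9 members with 9 promoters in all (ESRP1, ESRP2 and RAVER1 were not searched), and the 250 bases before each start were read. RBM47, with 4 promoters, held 1 E-box in 1 of them (chr4:40514772-40514801), and RAVER2 held 1 (chr1:64744825-64744854), shown on the gene's strand with the E-box in capitals.
RBM47: ctccgcccccacCACCTGaaagtttgacat
RAVER2: tccgcgccctcaCAGGTGtccgggtggcgg
The same letters were present in 17.5% of all 35116 promoters of the table, and the promoters of A1CF, RBMS1, RBMS2 and RBMS3 held none.

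ESRP1, RBM47 and A1CF stood far higher in the classical HPAF-II cells than in siCtrl-treated PANC-1 cells, and RBMS3 was listed at 0 in HPAF-II. Because the tables of the cell lines were normalized separately, no test was run between them, and the values were rescaled so that each library summed to 1000000. Cell line and table cannot be told apart in this comparison. Of the 9 members, 5 were at least 2-fold higher in HPAF-II (ESRP1, ESRP2, RBM47, A1CF and RBMS2), beside 27.2% of the 24673 genes whose mean reached 10 in either line. RBMS3 was the 1 member at least 2-fold lower, beside 25.2%. These counts used a pseudocount of 0.01 and depend on it. A1CF reached the mean of 10 only in HPAF-II and RBMS3 only in PANC-1. At this pseudocount both were bound to be at least 2-fold apart. With a pseudocount of 1, 5 members were higher and 0 lower, so that RBMS3 was not counted, beside 2733 and 2692 of the 24673 genes. Libraries of the lines did not overlap for 7 of the 9 members, beside 63.7% of all genes.

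ESRP1 had rescaled values of 175, 194 and 125 in HPAF-II and of 0.362, 0.726 and 0.525 in PANC-1 siCtrl libraries. The mean was 165 ± 35.6 (SD, n = 3) against 0.537 ± 0.183 (SD, n = 3), a log2 ratio of 8.23 with a pseudocount of 0.01. RBM47 was at 162, 149.6 and 125 in HPAF-II and at 0.726, 0.726 and 0.525 in PANC-1, a log2 ratio of 7.77. For both genes the lowest HPAF-II library, replicate 3, was at 125 and the highest PANC-1 library at 0.726. A1CF was at 11.8, 12.7 and 7.23 in HPAF-II and above 0 in only 1 PANC-1 siCtrl library (0.0170), so no ratio is given for it. ESRP2 differed far less than ESRP1. Its rescaled values were 43.9, 44.5 and 52.1 in HPAF-II and 20.3, 18.5 and 18.5 in PANC-1, a log2 ratio of 1.30 (1.02 with the deposited values as they stand).

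The RBMS genes did not form a common pattern. RBMS3 was listed at 0 in the 3 HPAF-II libraries and had rescaled values of 0.342, 0.284 and 0.638 in PANC-1. RBMS2 was higher in HPAF-II, with 37.4, 50.1 and 23.8 against 9.64, 9.12 and 9.99, a log2 ratio of 1.95 (2.19 without HPAF-II replicate 3). RBMS1 overlapped between the lines, with 30.4, 29.0 and 18.9 in HPAF-II and 25.8, 23.9 and 25.4 in PANC-1. Its log2 ratio of 0.06 turned to -0.22 with the deposited values, so no direction can be given.

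RAVER1 also overlapped, because HPAF-II replicate 3 (66.4) was far above replicates 1 and 2 (27.3 and 25.9), with PANC-1 libraries between them at 55.6, 53.0 and 51.0. The log2 ratio was -0.41 with all libraries and -0.998 without HPAF-II replicate 3. RAVER2 was higher in HPAF-II, at 17.5, 20.4 and 12.4 against 9.54, 9.22 and 9.76, with no overlap and a log2 ratio of 0.82 (0.99 without replicate 3, 0.54 with the deposited values). The silenced genes themselves were lower in HPAF-II, QKI with a log2 ratio of -2.36 and RBFOX2 of -0.55. By real-time qPCR the study reported RAVER2 and RBMS1 as higher in PANC-1 than in HPAF-II, which the values here do not show. It described ESRP2 as similar in these lines and did not detect A1CF. For RBM47, QKI and RBFOX2 its direction between the lines was the same as here. The deposited values without rescaling shifted the median log2 ratio of all genes from 0.080 to -0.191, and the ratios of the members shifted with it.

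**Figure D3:**
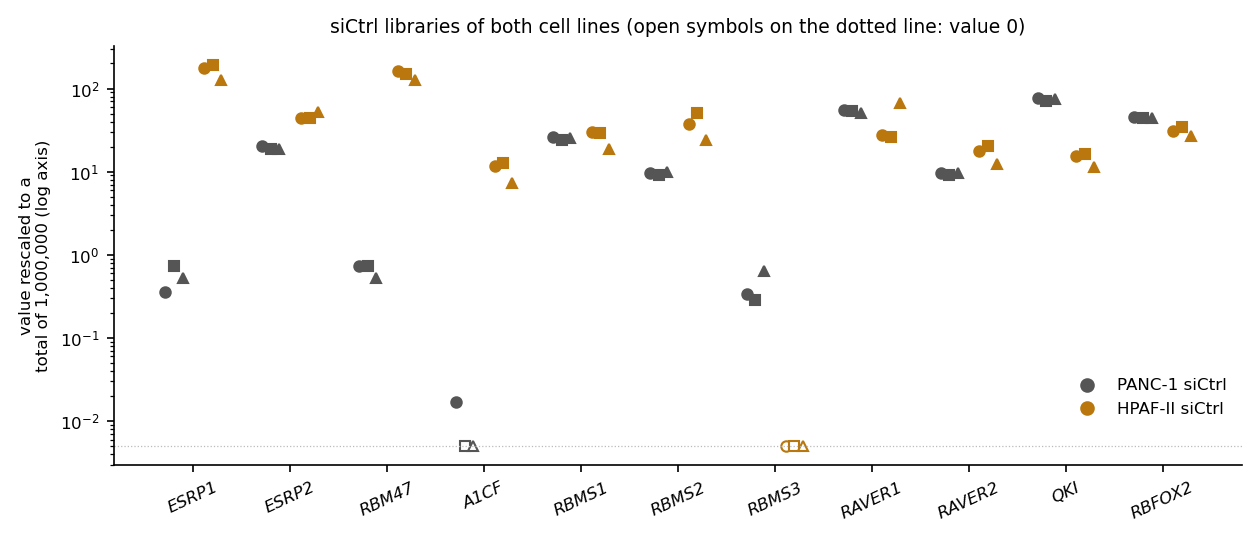
Values rescaled to a library total of 1000000 (log axis) for the 9 members, QKI and RBFOX2 in the siCtrl libraries of PANC-1 (grey) and HPAF-II (orange), 3 libraries each; open symbols on the dotted line are 0. ESRP1, RBM47 and A1CF lie far higher in HPAF-II, RBMS3 is listed at 0 there, and RAVER1 of HPAF-II replicate 3 (66.4) stands away from the other HPAF-II libraries.

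Epithelial genes were mostly higher in HPAF-II, as were the ESRP genes and RBM47. Among all genes above the minimum, 27.2% were at least 2-fold higher in HPAF-II and 25.2% at least 2-fold lower. Of 20 epithelial genes, 19 were at least 2-fold higher in HPAF-II (median log2 ratio 5.59 beside 0.080 over all genes), the exception being CLDN4 (-0.29). Of 13 mesenchymal genes above the minimum, 10 were at least 2-fold lower, CDH2, TWIST2 and MMP2 among them listed at 0 in HPAF-II, and SNAI2 was higher (log2 ratio 1.59), with a median of -4.35. Those listed at 0 passed the minimum only through PANC-1 and were bound to be counted as lower. FN1 was counted although its libraries overlapped between the lines. ZEB2 was low in both, with means of 0.0829 in HPAF-II and 0.238 in PANC-1. ZEB1 was at 28.7 ± 1.88 (SD, n = 3) in PANC-1 and at 1.09 ± 0.330 (SD, n = 3) in HPAF-II. Among the partners and relatives, 3 of 13 were at least 2-fold higher (HNRNPH1 and, from 0 in PANC-1, APOBEC1 and RBM46) and 1 was lower (VCL, log2 ratio -1.08), with a median of 0.53. RBM46 was at 0, 0.0997 and 0.0291 in HPAF-II, so it overlapped with PANC-1 and its place among the 3 rests on the pseudocount. APOBEC1 and RBM46 passed the minimum only through HPAF-II, so both were bound to be counted as higher. PTBP1 overlapped between the lines, and APOBEC1 was at 1.15 ± 0.564 (SD, n = 3) in HPAF-II. Of the 14 genes with ESRP-dependent exons, 4 were at least 2-fold higher and 3 lower, beside 27.2% and 25.2% of all genes. Their median log2 ratio was 0.04, and the lower genes included FGFR2 (-5.24) and CD44 (-3.03).

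Markers of the labelled tissue were checked in the siCtrl cells. The 6 markers of duct epithelium had a summed rescaled value of 11068 to 11955 in HPAF-II and 2867 to 2932 in PANC-1. Of these, 5 were at least 2-fold higher in HPAF-II, beside 27.2% of all genes. KRT7 and EPCAM were low in PANC-1, with means of 4.16 and 13.8 against 866 and 423 in HPAF-II. Those of acinar cells (4 genes) summed to at most 1.59 and 0.280, those of endothelium (3 genes) to at most 0.0452 and 0.107, and those of fibroblasts (4 genes) to 1.20 to 5.46 and 0.530 to 0.853. LUM, DCN and COL1A2 were at 0 in PANC-1, and PECAM1 and CDH5 at 0 in HPAF-II. COL1A2 was at 3.47 in HPAF-II replicate 1 and at 0 in replicates 2 and 3. The 4 leukocyte markers summed to 77.0 to 106 and 145 to 169, nearly all from the lysosomal gene CD68, while PTPRC was at 0 in both lines. In the knockdowns, 2 of 6 duct markers were lower with siQKI (KRT18 and SOX9), beside 18.1% of all genes. For siRBFOX2 it was 4 (KRT8, KRT18, KRT19 and SOX9), beside 14.5%. CD68, CD79A (both lower) and PDGFRB (higher) passed the threshold in both knockdowns. The part of these markers in the members' differences was not tested.

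Levels can be compared between genes only per length, for which normalized counts were divided by the kilobases of exon sequence in GENCODE v29. In PANC-1 siCtrl cells RAVER1 was highest at 3673 ± 128 per kb (SD, n = 3), followed by ESRP2 at 1178 ± 48.0, RBMS1 at 732 ± 22.0, RAVER2 at 539 ± 14.1 and RBMS2 at 374 ± 15.9. None of these neighbours overlapped. ESRP1 at 38.1 ± 13.4 and RBM47 at 26.5 ± 4.64 overlapped each other, RBMS3 followed at 7.91 ± 3.59, and A1CF was last at 0.199 ± 0.345. With the longest coding transcript as length, RBMS1 (2014 per kb) moved above ESRP2 (1728 per kb). In siQKI cells RAVER2 (631 ± 16.6) stood above RBMS1 (524 ± 34.5), the reverse of the siCtrl order, although not with the longest transcript as length (871 against 1443).

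HPAF-II cells had another order. ESRP1 was highest at 9592 ± 2109 per kb (SD, n = 3), then RBM47 at 4834 ± 593, which did not overlap with it. ESRP2 at 2389.9 ± 239 and RAVER1 at 2273 ± 1314 overlapped, and so did RBMS2 at 1196 ± 432, RAVER2 at 784 ± 194 and RBMS1 at 629 ± 150.1 with their neighbours. With the longest coding transcript as length, RBMS1 (1732 per kb) moved above RBMS2 (1257 per kb) and RAVER2 (1082 per kb). A1CF was at 313 ± 87.5 and RBMS3 was listed at 0.

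**Figure D4:**
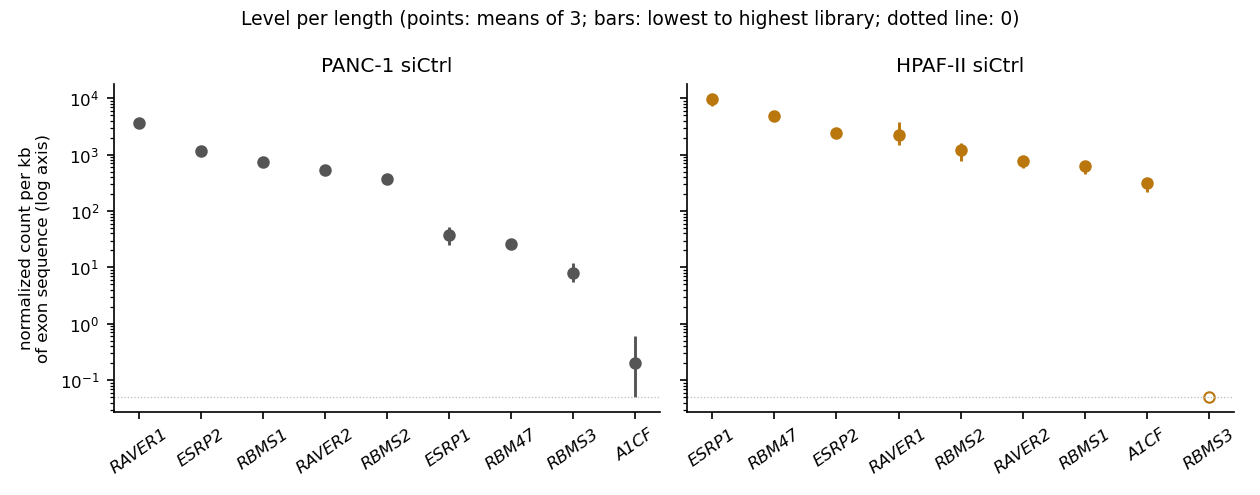
Mean normalized count per kb of exon sequence (log axis) of the 9 members in siCtrl cells of PANC-1 (left) and HPAF-II (right), ordered from high to low; bars run from the lowest to the highest of 3 libraries, and the dotted line stands for 0. RAVER1 leads in PANC-1 (3673 per kb) and ESRP1 in HPAF-II (9592 per kb).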

How the data were processed

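PolyA libraries were sequenced by the authors as 150 bp paired-end reads on an Illumina NovaSeq, and the submitters' processing notes name STAR 2.7.5a, SAMtools, Picard, FastQC, DESeq2 and hg38. The deposited signal values are gene counts of the FAST DB annotation that the authors divided by DESeq2 size factors, separately for 9 PANC-1 and 3 HPAF-II libraries. All values were whole multiples of a step (within 0.01), but 82.1% to 84.8% of low values were multiples of 3 steps, so reads could not be recovered, depth in fragments is unknown and no count model was used. Whether counting used strand, or pairs as units, is not given in the sources used here, so genes that overlap others are uncertain.

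The PANC-1 groups were fitted together in limma 3.58.1 (R 4.3.3, mean-variance trend, no block) on log2(normalized count + 1) for 22544 genes with a mean of at least 10, with Benjamini-Hochberg adjustment over all of them and a threshold of 0.05. The pseudocount understates changes of low genes. Tested on simulated data for siQKI against siCtrl (21571 genes), 110 of 193 genes changed 2-fold were recovered, beside 7 false calls. Lines were described by rescaled values with a pseudocount of 0.01. The named genes were the 9 members, QKI, RBFOX2, fixed lists of partners, epithelial, mesenchymal and ESRP-exon genes and cell type markers, and for each called member the 2 genes with the highest r. Members and lists were chosen with earlier results of these data known, so no pattern here is independent support. Python 3.11.15, numpy 2.4.6, pandas 2.3.3 and matplotlib 3.10.9 were used. Alternatives were other pseudocounts, filters and thresholds, upper-quartile rescaling, fits restricted to the compared groups, a block for the replicate number, no trend and each library left out. A listed gene is counted with its list but not reported here by itself.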

Additional observations from a re-analysis of the deposited data

How the results depend on the processing

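With siQKI against siCtrl, 5 members were past the threshold, and 4 to 5 when a library was left out. With siRBFOX2 against siCtrl there were 3 (2 to 3 with a library left out, 1 without the mean-variance trend), and with siQKI against siRBFOX2 there were 4 (2 to 4 with a library left out, 2 without the trend and 2 at an adjusted p under 0.01). Of the 9 members, 6 were at least 2-fold apart between the lines, and 6 with any library left out. The other alternatives kept these counts within 1.5 times. Over the 17 alternative fits, the calls for ESRP2, RBMS1, RBMS2 and RAVER1 with siQKI, RAVER1 with siRBFOX2, and RBMS1 and RBMS2 between the knockdowns held in each fit, that for RAVER2 with siQKI in 10, and that for RBMS1 with siRBFOX2 in 9. ESRP2 with siRBFOX2 held in 16, and ESRP2 and RAVER2 between the knockdowns in 13 and 11. Leaving out a library turned the sign only of log2 fold changes that were not past the threshold, with ranges of -0.27 to 0.37 for RBMS3 with siQKI, and with siRBFOX2 of -0.10 to 0.26 for RBM47, -0.05 to 0.07 for RBMS2 and -0.09 to 0.07 for RAVER2. The cause of these changes was not tested. A1CF was tested only without the filter, with an adjusted p of 0.543 with siQKI in limma.

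Replicate numbers did not pair the samples: deviations from group means correlated with r from -0.033 to 0.038 between libraries, and for same-numbered ones from -0.032 to 0.023, and not every library correlated best with its own number. With the replicate block, 5, 3 and 4 members were past the threshold in the 3 comparisons, and 7336, 5891 and 4758 genes in all, beside 7432, 5985 and 4844 without it.

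Precision was limited at low levels. ESRP1, RBM47 and RBMS3 had SEs of 0.26 to 0.37 on the log2 scale, against 0.05 to 0.08 for the other tested members, so changes of the size seen in ESRP2 were not detectable for them. Each line was normalized apart and represented by 3 libraries, and splicing itself is not measured by gene totals. HPAF-II replicate 3 had the largest share of genes 2-fold away from the other HPAF-II libraries, although the lowest correlation was between replicates 1 and 2 (r = 0.921).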

Other observations

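The 73-base microRNA row MIR4785 lies within the span of RBMS1 and had normalized counts of 899, 1127 and 1346 in siCtrl, 632, 947 and 613 in siQKI and 1001, 1599 and 365 in siRBFOX2 libraries, so that siRBFOX2 libraries lay on both sides of the siCtrl libraries. In HPAF-II, where RBMS1 itself overlapped with PANC-1, the row was at 43.2, 32.1 and 363. It was chosen after its values were seen.

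CELF2, a splicing regulator among the listed relatives, was listed at 0 in the siCtrl libraries of both lines. It was at 6.84, 0 and 0 in siQKI and at 85.2, 98.8 and 10.2 in siRBFOX2 libraries. CELF2 reached the minimum mean of 10 only through the siRBFOX2 libraries. Its adjusted p against siCtrl there (0.0172 in limma) is therefore no support for a rise. No fold is given against a group at 0, and the gene was chosen after its values were seen.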
